A study of Mus musculus with 4 samples.

Results

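The genes described here encode the CD3 chains of the T cell receptor complex (Cd3g, Cd3d, Cd3e and Cd247) and the coreceptor Cd4. They were chosen by gene symbol. They are 5 of the 22730 genes in the expression tables and hold 9 of the 28283 transcript rows. The junction tables list 155 junctions under these symbols, out of 1921627, and 62 of them had a read in some library. Of the 38 that the files mark as known, 37 had a read.

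RNA was taken from total thymocytes of 2 mice labelled wild type and 2 mice labelled hnRNP L KO, with 1 library per mouse, depleted of ribosomal RNA and sequenced on the SOLiD platform. hnRNP L binds RNA and acts on splicing, and the comparison asks what its loss changes in thymocyte RNA. All 4 mice are labelled with 1 mixed genetic background that lists CD45.1, C57BL/6, the fluorescent reporter allele Gt(ROSA)26Sortm4(ACTB-tdTomato,-EGFP)Luo as well as an LckCre transgene. The Lck promoter drives Cre in developing T cells. The sources used here do not give which of the mice carried Cre, their age, or which libraries shared a slide, so a slide and a genotype cannot be told apart. The mice are called wild type 1, wild type 2, KO 1 and KO 2 below, after their labels.

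The T cell receptor binds antigen but has a very short tail inside the cell, and the CD3 chains carry its signal. CD3 epsilon pairs with CD3 gamma and with CD3 delta, and CD3 zeta, the product of Cd247, forms a dimer with itself. The tails of all these chains hold the tyrosine motifs that the kinase Lck phosphorylates and that the kinase Zap70 then binds. CD4 binds MHC class II and brings Lck to the receptor. In the thymus the CD3 chains are made from the early, CD4- and CD8-negative stage on, and CD4 appears with CD8 at the double-positive stage, which most thymocytes occupy.

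Cd3g, Cd3d and Cd3e lie side by side. In the mm9 coordinates of the files, Cd3g (NM_009850, 7 exons) is at chr9:44777655-44788514 on the minus strand and Cd3d (NM_013487, 5 exons) at chr9:44789869-44795135 on the plus strand, so that their starts are 1354 bases apart and face away from each other. Cd3e (NM_007648, 8 exons, minus strand) is at chr9:44806826-44817673, and its end is 11690 bases from that of Cd3d. The 3 intervals do not overlap. Cd247 has 5 transcript rows on the plus strand of chromosome 1, of which the one with the most reads (NM_001113391, 8 exons, chr1:167718812-167792243) stands for the gene. Cd4 (NM_013488, 10 exons) is on the minus strand at chr6:124814711-124838227.

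Cd3g and Cd3d are close relatives, and their exon lengths show it. Exon 4 of Cd3g and exon 3 of Cd3d are both 132 nt long and encode the membrane-spanning part of the chain, and each is followed by an exon of 44 nt at the start of the tail. These 4 exons are printed because junctions that skip the exons of Cd3g had reads in every library, while those of Cd3d had 1 read in all. Capitals mark the bases that are identical at the same place in the partner. The pair of 132 nt shares 80 bases (60.6%) and the pair of 44 nt shares 30 (68.2%). Sequences here and below are from GENCODE M21 transcripts (GRCm38), matched to the files by exon and intron lengths, and positions are those of the files in mm9.
Cd3g exon 4 (chr9:44781589-44781720, minus strand): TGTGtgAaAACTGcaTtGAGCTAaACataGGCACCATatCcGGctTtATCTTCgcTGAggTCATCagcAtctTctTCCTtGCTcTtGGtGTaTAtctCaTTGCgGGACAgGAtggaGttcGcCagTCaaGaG
Cd3d exon 3 (chr9:44793687-44793818, plus strand): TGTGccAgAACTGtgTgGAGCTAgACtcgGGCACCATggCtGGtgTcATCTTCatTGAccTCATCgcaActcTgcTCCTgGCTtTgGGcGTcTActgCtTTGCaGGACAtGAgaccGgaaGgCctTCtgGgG
Cd3g exon 5 (chr9:44779346-44779389, minus strand): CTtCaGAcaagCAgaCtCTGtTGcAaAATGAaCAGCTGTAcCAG
Cd3d exon 4 (chr9:44794140-44794183, plus strand): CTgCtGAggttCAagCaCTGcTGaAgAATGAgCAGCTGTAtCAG

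Cd3e holds a pair of very short exons, exon 3 of 18 nt (chr9:44815259-44815276) and exon 4 of 15 nt (chr9:44813595-44813609), which together encode the end of the signal peptide and the start of the mature chain. They are printed because no read was recorded on the junction between them. The run gives the last 20 bases of exon 2 in lower case, exon 3 in capitals, exon 4 in lower case and the first 20 bases of exon 5 in capitals.
Cd3e end of exon 2, exon 3, exon 4, start of exon 5: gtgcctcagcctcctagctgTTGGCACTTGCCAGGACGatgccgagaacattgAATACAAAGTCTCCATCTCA

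Exon 5 of Cd247 (36 nt, chr1:167788574-167788609) has a pair of acceptors 3 nt apart and is printed because the junction that uses the second one held more reads than any other alternative junction of the 5 genes. Capitals mark the 3 bases that the second acceptor leaves out.
Cd247 exon 5: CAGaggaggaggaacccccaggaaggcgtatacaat

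The libraries held 27548708 to 51544714 reads on genes and 3302915 to 6146421 reads on junctions, and both KO libraries were below both wild types. Hnrnpl had 33270 and 41477 reads in wild type 1 and wild type 2 and 12903 and 6453 in KO 1 and KO 2. Its RNA was thus still present in both KO libraries. The gene reads were 41775795, 51544714, 27548708 and 28677506 in that order, so these raw counts overstate the difference between the groups. At similar depth, KO 1 held more Hnrnpl reads than KO 2. By reads of the Y-linked Ddx3y (4116 against at most 17), KO 1 was a male, unlike the other 3 mice. Small RNA genes took 6.52% of the gene reads in wild type 1 and at most 1.60% elsewhere. The double-positive markers listed for the label check were all read, with a summed level of 12357 to 16006 CPM (read counts scaled to library size by edgeR's TMM method), against 158 to 201 for the B cell list, 204 to 239 for the myeloid list and 93.2 to 460.0 for the erythroid list, whose highest value was in KO 1.

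In KO thymocytes Cd3e RNA stood higher in both mice than in either wild type. Cd3d and Cd247 RNA stood lower in both, and Cd3g and Cd4 RNA overlapped between the groups. None of the 5 differences passed the test over all genes. By edgeR's quasi-likelihood test on gene reads with Benjamini-Hochberg adjustment over 13733 genes, 0 of the 5 passed an adjusted p of 0.05, where 1 gene (0.00728%) passed in all. At an unadjusted p under 0.05 the test held 1 of the 5, Cd3e, against 9.9% of all genes. Groups of 2 did not overlap for 3 of the 5, against 44.7% of all genes, so that share is not far from the background. In these bulk libraries, fewer cells of a type and less RNA per cell cannot be told apart.

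**Figure D1:**
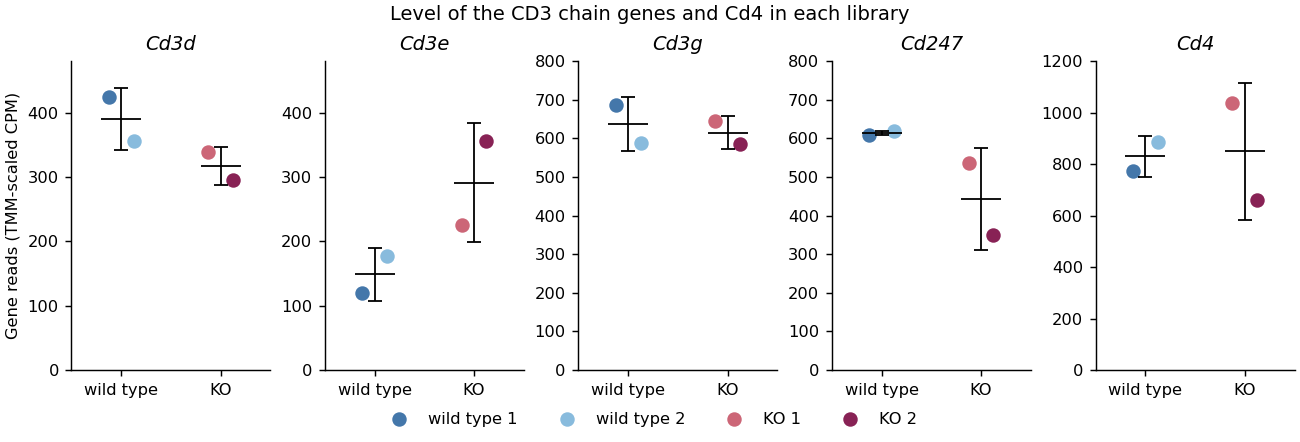
Reads of each gene as TMM-scaled CPM (vertical axis, from 0, with its own range in each panel) for the 2 wild-type and 2 KO libraries; points are libraries, bars are the mean and SD. Both KO points lie above both wild-type points for Cd3e and below them for Cd3d and Cd247, while Cd3g and Cd4 overlap.

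Compared per unit of transcript length, Cd3g was the most abundant of the 5 genes in every library. The authors' RPKM values (reads scaled to the length of the transcript and to mapped reads) for Cd3g were 262 and 239 in wild type 1 and wild type 2 and 252 and 234 in KO 1 and KO 2. In the wild types, Cd247 followed at 147 ± 8.19 RPKM (SD, n = 2), then Cd3d at 118 ± 9.23 and Cd4 at 108 ± 15.3. The means of Cd3d and Cd4 lay closer to each other than their spread. Cd3e, whose product pairs with both gamma and delta, was the lowest at 42.0 ± 13.5 RPKM.

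In the KO libraries that order was less clear. Cd4 at 111 ± 33.0 RPKM (SD, n = 2), Cd247 at 106 ± 29.9, Cd3d at 96.5 ± 7.41 and Cd3e at 82.4 ± 27.5 lay within their spread of each other, below Cd3g at 243 ± 12.9. Cd3e was the lowest of the 5 in 3 libraries, at 32.5 and 51.5 RPKM in the wild-type mice and 62.9 in KO 1, and the second highest in KO 2, at 102 RPKM.

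As a share of the summed RPKM of the 4 CD3 chain genes, which does not move with the scaling of a library, Cd3e took 5.80% and 9.29% in wild type 1 and wild type 2 and 11.6% and 19.9% in KO 1 and KO 2. The share of Cd247 was 25.2% and 27.5% in the wild-type mice and 23.4% and 16.6% in the KO mice, and that of Cd3d was 22.2% and 20.1% against 18.7% and 17.8%. The shares of these 3 genes did not overlap between the groups. A two-sided exact permutation test gave each of the 3 a p of 0.33, the smallest that 4 libraries in groups of 2 allow. Cd3g, at 43.1% to 46.8%, kept the largest share in every library and overlapped between the groups.

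**Figure D2:**
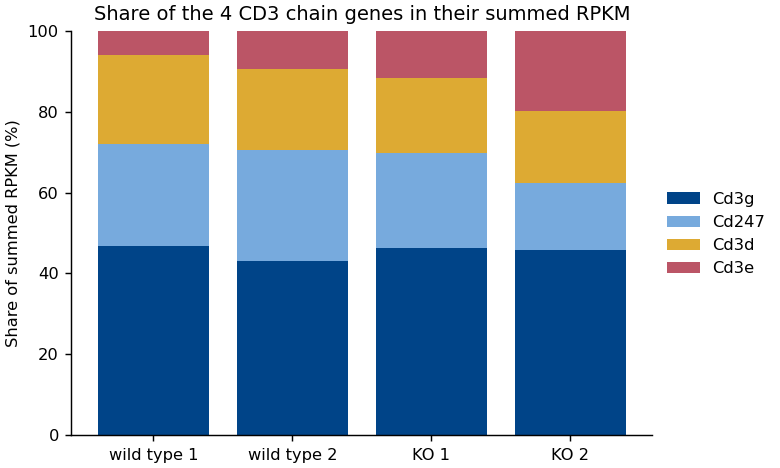
Share of each CD3 chain gene in the summed RPKM of Cd3g, Cd247, Cd3d and Cd3e (percent, stacked to 100) for each library. The Cd3e segment is 5.80% in wild type 1 and 19.9% in KO 2, while the Cd3g segment stays between 43.1% and 46.8%.

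Cd3g encodes the gamma chain. It had 26728 and 30008 reads in wild type 1 and wild type 2 and 17833 and 18083 in KO 1 and KO 2, which is 686, 588, 646 and 584 CPM. The groups overlapped. The log2 fold change of KO over wild type was -0.05 (SE 0.15, adjusted p = 0.910, edgeR). Its sign turned without wild type 1 (0.068) and without KO 2 (0.02).

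Cd3d encodes the delta chain, which takes the place of gamma in the other epsilon dimer. Its reads numbered 16518 and 18169 in the wild-type mice and 9345 and 9162 in the KO mice, or 424, 356, 338 and 296 CPM. Both KO libraries were lower than both wild types, which 21.4% of all genes also showed. The log2 fold change was -0.30 (SE 0.15, adjusted p = 0.523, edgeR), and -0.16 without wild type 1. The ratio of Cd3d to its divergent neighbour Cd3g in RPKM was 0.475 and 0.466 in the wild-type mice and 0.403 and 0.390 in the KO mice, so its 2 groups lay apart with little spread within each. The ratios of Cd3e and of Cd247 to Cd3g also lay apart, with a wider spread, and that of Cd4 to Cd3g overlapped. How often the ratio of any 2 genes lies apart in these libraries was not counted.

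Cd3e encodes the epsilon chain. It had 4656 and 9075 reads in wild type 1 and wild type 2 and 6240 and 11040 in KO 1 and KO 2, or 119.6, 178, 226 and 357 CPM. The KO mean of 291 ± 92.4 CPM (SD, n = 2) stood against 149 ± 41.2 in the wild-type mice. Both KO libraries were above both wild types, which 23.3% of all genes also showed, and within each group the mouse numbered 2 was the higher one, by 1.49 times in the wild-type mice and 1.58 times in the KO mice.

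The log2 fold change of Cd3e was 0.97 (SE 0.29), with an adjusted p of 0.470 by edgeR's quasi-likelihood test. It passed under DESeq2, at 0.96 with an adjusted p of 0.0177, and did not under limma-voom, at 0.96 with an adjusted p of 0.519. Without KO 2 it was 0.60 and without wild type 2 it was 1.29, and it was positive in each of the 4 fits that left out 1 library. Among the 2665 genes with a mean of at least 100 CPM, whose median log2 fold change was -0.08, Cd3e had the highest value. Over all 13733 genes tested, 294 (2.14%) had a log2 fold change at least that of Cd3e, itself included. The myeloid marker list also had its groups apart, at 227 and 204 CPM summed in wild type 1 and wild type 2 and 236 and 239 in KO 1 and KO 2. Of its 10 tested members, 10 were positive, against 51.1% of all genes, at 0.02 to 0.74, and none was at 0 reads. The groups were apart and higher in KO for 6 of the 10, against 23.3% of all genes. Of the erythroid markers 5 of 5 were positive too, and of the epithelial and stromal markers 9 of 10. Unlike Cd3e, neither of these lists was higher in both KO mice. The erythroid median log2 ratio to the wild-type mean was 1.63 in KO 1 and -0.20 in KO 2. That of the epithelial and stromal list was -0.33 in KO 1 and 0.81 in KO 2. The part of these lists in the Cd3e result was not tested.

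Cd247 encodes the zeta chain, which carries most of the receptor's signalling motifs. Its reads numbered 23724 and 31549 in the wild-type mice and 14835 and 10839 in the KO mice, or 609 and 618 CPM against 537 and 350.1 CPM. Both KO libraries were lower than both wild types, which differed from each other by little. The log2 fold change was -0.47 (SE 0.20, adjusted p = 0.501, edgeR), and 4.62% of the genes with a mean of at least 100 CPM were as low or lower.

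The size of the Cd247 difference depended on which KO mouse was used. Without KO 1 the log2 fold change was -0.82 and passed (adjusted p = 0.0235, edgeR, with the lone KO library assumed to vary like the wild types), in a fit where 427 of 14440 genes passed, 227 of them lower, while leaving out KO 2 gave -0.19 (adjusted p = 0.716). KO 2 was also the lowest library for the mature thymocyte list, at 668 CPM summed against 1019.8 to 1029 in the other 3 libraries. Of its 10 members, 8 were below the wild-type mean in KO 2 and 2 in KO 1, and none was at 0. KO 2 was likewise lowest for the double-positive list, which includes Cd4, at 12357 against 15110.5 to 16006 CPM. Of the 10 members, 7 were below the wild-type mean in KO 2 and 2 in KO 1, and none was at 0. The largest term of that sum was Rag1, at 7811 and 7402 CPM in the wild-type mice and 7685 and 5529 in KO 1 and KO 2. Rag2 was higher in both KO mice. Of all genes with a mean of at least 100 CPM, as 8 of the 10 were, 32.8% had a positive log2 fold change. The share of all genes below the wild-type mean in each KO library was not counted. The part of either list in the Cd247 value was not tested.

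Cd4 encodes the coreceptor. It had 30122 and 45204 reads in the wild-type mice and 28663 and 20434 in the KO mice, or 774 and 886 CPM against 1038 and 660.0 CPM. The KO mice held both the highest and the lowest level, on either side of the wild types. The log2 fold change was 0.03 (SE 0.22, adjusted p = 0.967, edgeR), and it was -0.34 without KO 1 and 0.32 without KO 2. The 2 KO libraries therefore differed from the wild types in opposite directions.

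Reads that span exon junctions gave a second count of the same RNAs, from a separate table of the same libraries. By reads summed over the known junctions of each gene, 0 of the 5 passed edgeR's quasi-likelihood test, where 3 of 9939 genes (0.0302%) did. At an unadjusted p under 0.05 there were 3 of the 5 (Cd3e, Cd3d and Cd247), against 8.8% of all genes.

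For Cd3e the known junctions held 503 and 905 reads in the wild-type mice and 650 and 1246 in the KO mice, a log2 difference of 1.08 (SE 0.25, adjusted p = 0.293, edgeR). It passed by this count without wild type 2 (1.34, adjusted p = 5.9e-06) and without KO 1 (1.42, adjusted p = 0.0063), and was 0.61 (adjusted p = 0.751) without KO 2. These fits take the spread of the lone library's arm from the mice of the other genotype, and 81 genes passed without wild type 2 and 65 without KO 1. For Cd247 the reads were 4217 and 4798 against 2258 and 1680, and the difference was -0.56 on the log2 scale (SE 0.18, adjusted p = 0.411, edgeR). In the same fit without KO 1 it passed, at -0.87 (adjusted p = 0.0448), and without KO 2 it was -0.31. In both genes the groups stood apart in the same direction as by gene reads once scaled to library size, higher in KO for Cd3e as for 19.7% of all genes, and lower in KO for Cd247 as for 19.2%.

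Cd3g differed by -0.08 (SE 0.16) and Cd4 by 0.10 (SE 0.18) on the log2 scale by junction reads, and both groups overlapped. The sign of Cd3g turned without wild type 1 (0.052), and that of Cd4 without wild type 1 (-0.02) and without KO 1 (-0.20). Cd3d differed by -0.64 (SE 0.20, adjusted p = 0.401, edgeR), from 2770 and 2114 reads in the wild-type mice and 1042 and 1029 in the KO mice.

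That Cd3d value rests on 1 wild-type library. Without wild type 1 it was -0.22, and without wild type 2 it was -0.98 and passed (adjusted p = 0.0020, edgeR), as 1 of the 81 genes. The junction of exons 2 and 3 (chr9:44793271-44793687) held 1266 reads in wild type 1, against 364 in wild type 2 and 228 and 238 in the KO mice. The next junction, of exons 3 and 4, held 156, 334, 174 and 155 reads in the same order. Wild type 1 thus stood apart upwards at the one and had fewer reads than its replicate at the other.

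**Figure D3:**
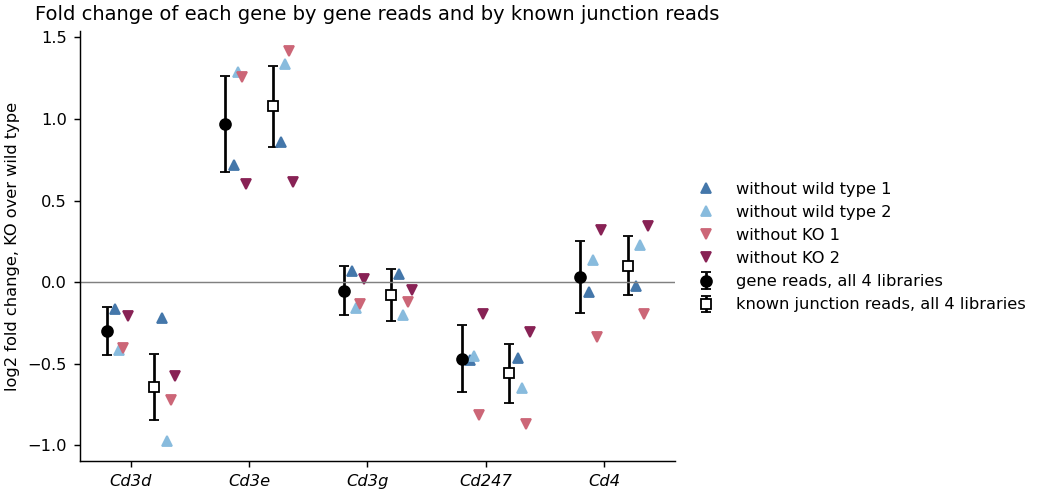
Log2 fold change of KO over wild type for each gene by gene reads (filled circles) and by known junction reads (open squares), with bars of 1 SE; triangles are the values with 1 library left out. Cd3e is positive at every setting drawn and Cd3d and Cd247 are negative, while Cd3g and Cd4 lie on both sides of 0.

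For every 100 gene reads, Cd3g had 28.2, 27.2, 26.5 and 27.2 known-junction reads in wild type 1, wild type 2, KO 1 and KO 2. Cd3e had 10.8, 9.97, 10.4 and 11.3 in that order, so its gene reads and its spliced reads were higher in KO in nearly the same proportion. The value for Cd4 was 6.51 to 7.08, that for Cd247 15.2 to 17.8 and that for Cd3d 11.2 to 16.8, with the highest of both in wild type 1. The median over 9874 genes was 11.7 to 12.0. The number depends on how many junctions a transcript of a given length holds, so it is compared here between libraries and not between genes.

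Along the transcripts, reads were spread unevenly over the junctions in every library. In Cd3g the junction of exons 1 and 2 held 288 reads over the 4 libraries, while that of exons 2 and 3 held 6214. In Cd247 the same pair of junctions held 35 and 4695 reads. In Cd3d the first junction held 3554 reads and the last 486.

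In Cd3e the known junction between the 2 short exons printed above, exons 3 and 4, had 0 reads in all 4 libraries, while those on either side had 474 and 75 reads. The last junction of the gene, of exons 7 and 8, had 1660. A junction that would skip both short exons had 0 reads too, which allows a share of up to 5.36%, 4.76%, 6.25% and 2.78% in wild type 1, wild type 2, KO 1 and KO 2. Each limit given for a count of 0, here and below, is 3 reads as a share of the mean reads on both inclusion junctions, an approximate bound. These limits, like the intervals below, hold counting error alone, because copies made by PCR are not separate molecules. Whether reads can be placed across exons this short in the authors' alignment was not tested.

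**Figure D4:**
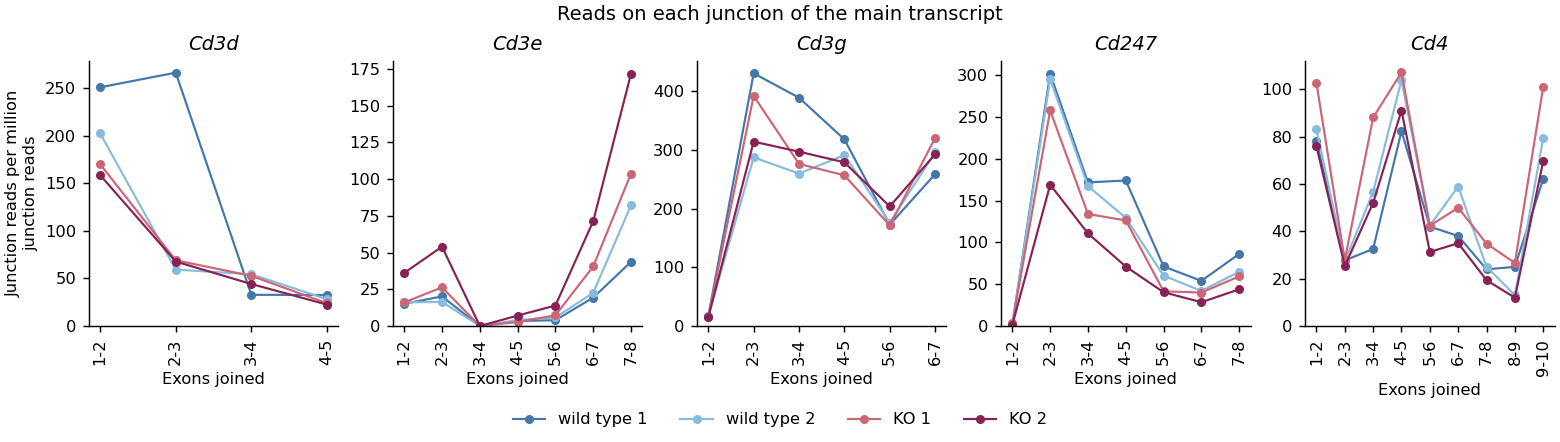
Reads on each junction of the main transcript of each gene, as CPM of the library's junction reads (vertical axis from 0), in 5′ to 3′ order along the horizontal axis. KO 2 has the most reads at each read junction of Cd3e, wild type 1 stands apart at exons 2-3 of Cd3d, and no library has a read at exons 3-4 of Cd3e.

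The use of each junction relative to the other junctions of its gene was tested with edgeR's diffSpliceDGE over 95139 junctions, of which 4 (0.0042%) passed. Of the 40 junctions of the 5 genes in that test, 0 passed, and 0 had an unadjusted p under 0.05, where 2.55% of all junctions did. The smallest unadjusted p of each gene in that test was 0.0884 for Cd247, 0.122 for Cd4, 0.127 for Cd3d, 0.149 for Cd3g and 0.241 for Cd3e. In Cd4 that was the junction of exons 3 and 4 (chr6:124823148-124829325), with 155 and 348 reads in the wild-type mice and 291 and 183 in the KO mice. In Cd3d it was that of exons 3 and 4 (chr9:44793818-44794140), and in Cd3e that of exons 4 and 5 (chr9:44810436-44813595). A difference in splicing of these genes was thus not detectable with 2 mice per group.

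The alternative junctions with the most reads nevertheless differ in kind between the genes. In Cd3g, a junction from exon 3 to exon 5 (chr9:44779389-44782246) leaves out the membrane exon of 132 nt, a multiple of 3. It held 35 and 36 reads in the wild-type mice and 20 and 49 in the KO mice. Set against the mean of both inclusion junctions, the skipped share was 2.04% and 2.08% in wild type 1 and wild type 2 and 2.22% and 4.62% in KO 1 and KO 2. KO 2 stood apart, with a 95% Clopper-Pearson interval of 3.44% to 6.06%, and the other 3 libraries lay within each other's intervals. The group means were 2.06% ± 0.03 and 3.42% ± 1.69 (SD, n = 2). The difference was 1.36 percentage points, 2.56 without KO 1 and 0.16 without KO 2.

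No read skipped the related exon of Cd3d. Its skipping junction had 0 reads in every library, which allows a share of up to 0.42% and 0.86% in the wild-type mice and 1.49% and 1.52% in the KO mice. In both wild types and in each KO the limit for Cd3d was below the share measured in Cd3g. In KO 1, however, it lay inside the Cd3g interval of 1.36% to 3.41%. The limit in wild type 1 leans on the 1266 reads of the junction of exons 2 and 3, against 156 on that of exons 3 and 4. The exons that share 60.6% of their bases thus had unlike read counts on their skipping junctions, by a comparison of counts within each library and with no test between genes.

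The 44 nt exon is not a multiple of 3, and fewer reads skipped it. Its skip in Cd3g had 11 and 6 reads in the wild-type mice and 1 and 20 in the KO mice, or 0.93%, 0.42%, 0.14% and 2.30%. KO 2 was again the highest and KO 1 the lowest, so the groups overlapped, and without KO 2 the difference of 0.55 percentage points became -0.53. The skip of the related exon of Cd3d had 0, 0, 0 and 1 reads, and the 3 counts of 0 allow shares of up to 1.92%, 1.18% and 2.36%. These limits lie above the Cd3g shares of the same libraries, so at this exon a difference between the genes was not detectable in them. The skip of the 24 nt exon 2 of Cd3g had 10, 5, 4 and 3 reads, or 0.93%, 0.53%, 0.59% and 0.52%, with overlapping groups. These shares are set mostly by the downstream inclusion junction, which held 2049, 1766, 1295 and 1104 reads. The upstream one held 80, 105, 51 and 52 reads, and against it alone the shares would be several times larger.

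In Cd247 the acceptor that drops the first 3 bases of exon 5 is a known junction (chr1:167787627-167788577). It took 110 and 100 reads in the wild-type mice and 51 and 33 in the KO mice. Its share of the reads at the pair of acceptors was 11.7% and 11.2% in wild type 1 and wild type 2 and 10.9% and 11.7% in KO 1 and KO 2. The means of 11.5% ± 0.39 and 11.3% ± 0.54 (SD, n = 2) differed by less than their spread, and every library lay within the others' intervals.

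The last exon of Cd247 has a known alternative, reached from exon 7 by a junction to an acceptor 5651 nt downstream of the usual one (chr1:167789955-167796786). Replacing the end of the zeta chain in this way is known to give the eta chain. The junction held 11 and 18 reads in the wild-type mice and 19 and 7 in the KO mice, or 2.61% and 4.33% against 8.84% and 4.35% of the reads at the pair. KO 1 was the highest, with an interval of 5.40% to 13.5%, and KO 2 was level with wild type 2. The difference of 3.12 percentage points became 0.88 without KO 1. Known junctions that start downstream of this acceptor held 9 and 5 reads over the 4 libraries. The share can thus pool different ends and cannot be read as a share of eta alone. The transcript rows that hold the alternative end share most exons with the main row and had 32.7% to 40.2% of its reads, so they give no separate measure.

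The other alternative junctions of Cd247 that the naming rule covers had few reads. The skip of exon 2 had 1 and 12 reads in the wild-type mice and 1 and 0 in the KO mice. The junction of exons 1 and 2, from the same donor, itself held only 8 and 11 reads against 11 and 5. The skip thus cannot be called rare at that donor. The skip of exon 3 had 8, 4, 3 and 1 reads, and the skip of exons 3 to 7 had 4, 12, 1 and 1. In Cd4 no skipping junction reached 10 reads over the 4 libraries, and in Cd3e no junction outside the main transcript had a read.

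**Figure D5:**
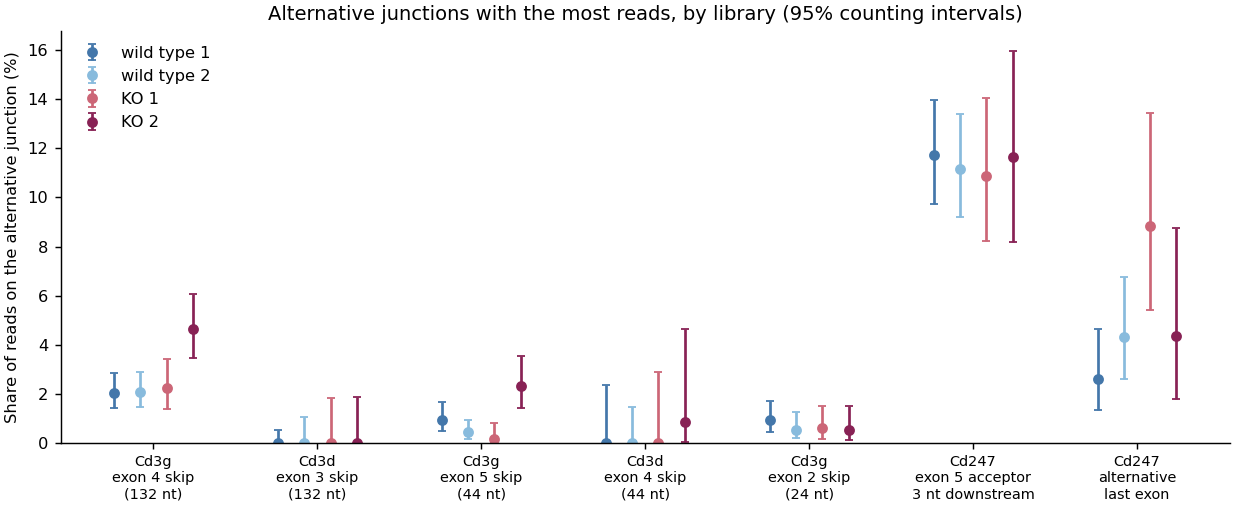
Share of reads on the alternative junctions (percent, vertical axis from 0) for 4 libraries; bars are 95% Clopper-Pearson intervals of counting error. KO 2 is highest for the skips of Cd3g exons 4 and 5 (4.62% and 2.30%), the Cd3d counterparts lie at 0 in all but 1 case, and the Cd247 acceptor share is 10.9% to 11.7% everywhere.

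Genes that act with the CD3 chains were taken from lists by function, and 0 of their members passed edgeR's quasi-likelihood test. At an unadjusted p under 0.05 there were 1 of 10, 1 of 30, 1 of 22 and 3 of 20 in the 4 lists, in the order given here, against 9.9% of all genes. Of the 10 genes of the receptor complex and coreceptors, 5 had a positive and 5 a negative log2 fold change, with a median of -0.02, where the median over all 13733 genes was 0.01. The list's median was -0.23 without KO 1 and 0.03 without KO 2 or with upper-quartile scaling. The list includes the 5 described genes. Trat1, an adaptor that binds the zeta chain, had 111 and 105 CPM in the wild-type mice and 98.3 and 74.1 in the KO mice, a log2 fold change of -0.32 (SE 0.15).

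Of 30 tested genes of proximal receptor signalling, 26 were negative and 4 positive, and their median log2 fold change was -0.18. Of the 30, 27 had a mean of at least 100 CPM, and among all genes at that level 32.8% were positive and the median was -0.08. The smallest p belonged to Sh2d1a, which encodes the adaptor SAP and whose log2 fold change was -0.39 (SE 0.15). Cd2, an adhesion receptor, was at -0.51 (SE 0.23), Unc119, a regulator of Lck, at -0.39 (SE 0.20), and Vav1, an exchange factor, at -0.29 (SE 0.15). The list's median against the wild-type mean was 0.00 in KO 1 and -0.36 in KO 2, so the list as a whole stood below the wild types in KO 2 and not in KO 1. No median over all genes in each KO library was set beside these values. Whether the lower level in KO 2 is particular to this list was thus not tested.

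Of 22 tested regulators of Cd4 and CD3 gene transcription, 11 were positive and 11 negative, with a median of 0.01. Runx3, which silences Cd4 in the CD8 lineage, had 11.5 and 12.7 CPM in the wild-type mice and 16.4 and 15.4 in the KO mice, or 0.40 as a log2 fold change (SE 0.15, adjusted p = 0.486, edgeR). Maz was at -0.30 (SE 0.14), Gata3, a factor of the CD4 lineage, at 0.24 (SE 0.12), and Cbfb, the partner of the Runx proteins, at 0.22 (SE 0.12).

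Of 20 tested genes that flank these loci, 10 had a positive and 10 a negative log2 fold change, with a median of 0.02 (-0.12 without KO 1), and 0 passed. Divided by locus, a division made after the values were seen, 7 of 8 neighbours of the CD3 cluster were positive, 6 of 7 neighbours of Cd4 were negative, and those of Cd247 were 2 positive and 3 negative. With upper-quartile scaling these became 7 of 8 positive, 5 of 7 negative, and 3 positive and 2 negative. Without KO 1, 5 of 9 tested neighbours of the CD3 cluster were positive, and without KO 2, 4 of 7 neighbours of Cd4 were negative. Ube4a, a ubiquitin ligase gene near the CD3 cluster, had 80.4 and 101 CPM in the wild-type mice and 115 and 145 in the KO mice, or 0.52 as a log2 fold change (SE 0.17, adjusted p = 0.452, edgeR). Leprel2 near Cd4 was at -0.83 (SE 0.31) at a level of 2.35 to 5.49 CPM. Rcsd1 and Dcaf6, near Cd247, were at -0.40 (SE 0.16) and -0.32 (SE 0.17).

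To place each gene among the others, the distance between patterns of log2 CPM, each centred on its mean over the 4 libraries, was computed among the 2665 genes with a mean of at least 100 CPM. This is a description over 4 libraries, with no test. The nearest to Cd247 were Trib2 at a distance of 0.01, 2310014H01Rik at 0.02 and Lbh at 0.04. The nearest to Cd3d were Hn1, Bub3 and Coro1b at 0.03 to 0.04, and those to Cd3g were Nap1l4, Lcp1 and Xab2 at 0.03 to 0.04. Cd4 had Shisa5 at 0.05, Sp100 at 0.13 and Samd9l at 0.16.

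The nearest patterns to Cd3e lay farther away. The patterns were centred and not scaled, so a gene that differs more between libraries, as Cd3e does, tends to lie farther from the others. The first was Ccar1 at 0.15, with 96.5 and 155 CPM in the wild-type mice and 195 and 275 in the KO mice, followed by Dzip3 and Nrp1, both at 0.35. Of the other members, Cd3g was at 1.29 (place 1576 of 2665), Cd4 at 1.36 (1887), Cd3d at 1.51 (2327) and Cd247 at 1.76 (2546). Between Cd3d and Cd3g, the divergent pair, the distance was 0.25, which is place 592 of 2665 from Cd3d and 975 from Cd3g.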

How the data were processed

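The authors counted reads per RefSeq transcript from primary alignments of mapping quality 10 or more, per the file headers. They deposited these raw counts with the ratio of reads to length and the RPKM, which scales that ratio by mapped reads. They also deposited raw read counts per junction, marked known or putative. The build is mm9, per the submitters' processing notes. The sources used here give neither the aligner nor the handling of strand.

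For each gene the transcript row with the most reads was kept. Genes were tested with the robust quasi-likelihood fit of edgeR 4.0.16 (R 4.3.3, limma 3.58.1) on counts, with TMM scaling, its low-count filter and Benjamini-Hochberg adjustment over all genes. The diffSpliceDGE test took junctions of at least 10 reads where a gene had 2 or more of them. Exons were numbered along the known junctions, and their lengths summed to the row length in all 5 genes. Alternatives were DESeq2 1.42.0, limma-voom, other scalings and filters, a replicate block and leaving out each library. The tests were checked on simulated data. All 5 genes passed the filter and are named in full. Junctions are named where they had a gene's smallest p, or skip or add an exon with at least 10 reads. At most 4 genes per list, those with the smallest p, are named. The genes, lists and rules were chosen with earlier results of these data known.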

Additional observations from a re-analysis of the deposited data

How the results depend on the processing

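The counts of genes and junctions that passed over the whole tables moved with most choices. By gene reads, 1 gene passed with edgeR, against 113 with DESeq2 (72 higher, 41 lower), 62 with no filter on low counts, 3 without small RNA genes, and 0 with limma-voom, with upper-quartile scaling, without the robust fit and with transcript rows summed. Leaving out 1 library gave 2 to 427. By known junction reads per gene, 3 passed, as with limma-voom and with upper-quartile scaling, against 12 with DESeq2, 63 with no filter and 12 to 81 with 1 library left out. In the junction usage test 4 passed, as with at least 20 reads and with upper-quartile scaling, against 2 among known junctions only, 1 with limma-voom and 3 to 12 with 1 library left out. The cause was not tested.

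Among the 5 genes, Cd3e passed by gene reads under DESeq2 (0.96) and Cd247 without KO 1 (-0.82). With 1 library left out, the log2 fold change of Cd3e was 0.60 to 1.29, that of Cd3d -0.42 to -0.16, that of Cd247 -0.82 to -0.19, that of Cd3g -0.16 to 0.068 and that of Cd4 -0.34 to 0.32. By junction reads these ranges were 0.61 to 1.42 for Cd3e, -0.98 to -0.22 for Cd3d, -0.87 to -0.31 for Cd247, -0.20 to 0.052 for Cd3g and -0.20 to 0.34 for Cd4. With no filter on low counts, Cd3e (1.06, adjusted p = 2.8e-06) and Cd3d (-0.66, adjusted p = 0.0293) passed by junction reads in edgeR, as did Cd3e under DESeq2 (1.08, adjusted p = 0.0196).

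The labels number the mice in each group, and nothing in them says that a number marks a shared litter or slide. Deviations from the group means correlated at 0.26 between same-numbered libraries, over 13733 genes. With the number as a replicate block, 121 genes, 123 genes by junction reads and 10 junctions passed. In that block Cd3e passed by gene reads (0.96, adjusted p = 0.0097, edgeR) and Cd4 stood at -0.00037. By junction reads Cd3e (1.05), Cd3d (-0.60) and Cd247 (-0.58) passed with it.

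Some skipped shares moved when 1 inclusion junction was used in place of the mean of both. The difference for the skip of Cd247 exon 2 was -0.60 percentage points, and -27.5 against the upstream junction alone. For the skip of Cd247 exons 3 to 7 it was -0.52, and -1.37 against the downstream junction alone, and for the skip of Cd3g exon 2 it was -0.18, and -1.46 against the upstream junction alone. With 2 mice per group and 75 to 1660 reads on the read junctions of Cd3e, small differences in its splicing were not detectable.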

Other observations

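Thymocyte stage markers, taken from lists beside the receptor genes, had 0 members past edgeR's quasi-likelihood test. At an unadjusted p under 0.05 there were 1 of 7 double-negative, 1 of 10 double-positive and 2 of 10 mature markers, against 9.9% of all genes tested. Rag2, a recombinase gene of double-positive cells, was at 340 and 335 CPM in wild type 1 and wild type 2 and at 491 and 570 CPM in KO 1 and KO 2, a log2 fold change of 0.65 (SE 0.14), while its partner gene Rag1 overlapped between the groups at -0.20 (SE 0.20). H2-K1, a class I gene that is higher in mature cells, was at 347 and 310 CPM against 271 and 161 CPM, a log2 fold change of -0.61 (SE 0.25). Runx3, also on the mature list, was higher in both KO mice at 0.40 (SE 0.15), and 4 of the 10 mature members were positive. Dtx1, a Notch target of early cells, was at -0.64 (SE 0.22). The double-negative list's median was -0.56 in KO 1 and 0.25 in KO 2, against the wild-type mean.

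The erythroid list was at 460.0 CPM summed in KO 1 and 93.2 in KO 2, against 128 and 146 in the wild-type mice. The list for thymic epithelium and stroma had a median log2 ratio to the wild-type mean of -0.33 in KO 1 and 0.81 in KO 2. Natural killer markers had a median log2 fold change of 0.22 over 6 genes, and 0.39 without wild type 1, 0.08 without wild type 2, 0.02 without KO 1 and 0.30 without KO 2. Of the B cell list, 2 of 7 members were positive, with a median of -0.04 that was 0.12 without KO 2 and 0.0097 with upper-quartile scaling.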
